A study of Mus musculus with 275 samples.

Results

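The data were striatal expression arrays of mice bred for a high or a low cataleptic response to haloperidol, a blocker of D2-like dopamine receptors, and the arrays described here were those richest and poorest in transcripts of the choroid plexus. The arrays were chosen by their Ttr level: within each of the 3 genetic backgrounds, arrays that correlated poorly with the others were left out, the rest were ranked by the probe of Ttr (transthyretin) and cut into 3 groups of near equal size, and the upper and lower groups were compared over the other expressed probes. The upper and lower groups held 87 arrays each, 174 of 275 in all, with 26 upper and 26 lower arrays in F2, 30 and 30 in HS4, and 31 and 31 in HS-CC. The line labels played no part in the choice, which rested on a measured value, so a difference between them says that a probe moved with Ttr from array to array and not that treatments differed.

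F2 was an intercross of the C57BL/6J and DBA/2J strains, with 41 High and 42 Low animals. HS4 was a heterogeneous stock made from C57BL/6J, DBA/2J, BALB/cJ and LP/J, and HS-CC one made from the founder strains of the Collaborative Cross, with 48 High and 48 Low animals each. High lines were selected for responding to haloperidol by catalepsy and Low lines for not responding, and every animal gave 1 array. The animals were progeny of the selected lines, bred after a few generations of selection, and their ages were not stated in the sources used. For 56 of the 96 HS4 arrays the labelled sex and the sex-linked transcripts disagreed, so the line labels of HS4 may not belong to its arrays. The Ttr ranking does not use them.

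The choroid plexus is a folded sheet of epithelium around a vascular core that hangs in the brain ventricles and makes cerebrospinal fluid. Its epithelial cells pump sodium, chloride and bicarbonate toward the ventricle, and water follows through aquaporin. They also secrete carriers and growth factors into the fluid, transthyretin above all, which carries thyroxine and, bound to retinol-binding protein, retinol. The lateral ventricle borders the striatum, and ciliated ependymal cells line its wall. In tissue RNA of this kind, fewer cells of a type and less RNA per cell cannot be told apart.

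Ttr set the groups, so its levels are a description. On the log2 intensity scale it ran from 8.94 to 9.45 (median 9.09) in the lower group of F2 and from 12.05 to 15.89 (median 14.53) in the upper. In HS4 the lower group held 9.06 to 9.75 (median 9.31) and the upper 13.02 to 15.95 (median 14.79). In HS-CC the lower group held 9.16 to 10.33 (median 9.59) and the upper 13.54 to 16.05 (median 15.54). The lower arrays thus lay close to background, which Ttr still exceeded on 20 of 26, 23 of 30 and 29 of 31 of them. The boundary was not a gap in the data: the arrays between the 2 groups reached from 9.54 to 11.76 in F2, from 9.78 to 12.94 in HS4 and from 10.46 to 13.24 in HS-CC. At the upper end Ttr approached the brightest value of any probe (15.93, 16.03 and 16.09 in F2, HS4 and HS-CC) and lay within 0.5 of it on 8, 11 and 14 upper arrays, so differences in Ttr among the richest arrays are compressed.

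Array quality was not the same everywhere. Mean correlations with the other arrays of a background lay between 0.980 and 0.989 in both groups of F2. In HS4 they fell to 0.862 in the upper group, against 0.951 in the lower. On the poorest upper array 29.9% of the probes exceeded background, against a median of 55.2%. Further upper arrays stood at 39.95%, 41.45%, 47.06%, 47.79%, 49.61%, 50.83% and 51.7%, all below the lowest lower array of HS4, at 52.76%. In HS-CC the lowest was 0.934, in the lower group, where 1 array had 29.7% of its probes above background. Main counts are therefore also given after poor arrays were left out repeatedly, which keeps 71 F2, 75 HS4 and 87 HS-CC arrays, or without HS4. Both repeats of the lists were added after the data were seen, and the part of array quality in the differences was not tested further.

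Of 14027 probes tested, 2225 (15.9%) were called, of which 1161 (8.28%) were higher and 1064 (7.59%) lower in the Ttr-rich arrays, by limma with background as a covariate and an adjusted p below 0.1. Against that, 39 of the 63 tested probes of choroid plexus genes were higher and 0 were lower (39 and 2 at an unadjusted p below 0.05 by limma). Over all 14027 tested probes, 3609 were at that unadjusted level, in either direction. The median log2 difference of those 63 was 0.08, against 0.00 over all tested probes. The lists name 101 genes, of which 88 are on the array with 127 probes besides Ttr, and 64 of these probes did not pass the filter on expression. A probe that passed it only through Ttr-rich arrays had to differ. With the filter set on the lower group alone, 33 of 55 were higher and 0 lower, and with no filter 53 of all 127 were higher and 0 lower, against 3.63% and 2.86% of all probes. With poor arrays left out repeatedly the count was 36 of 61, against 4% of all probes tested, and without HS4 it was 30 of 63, against 2.32%. The lists were drawn up with earlier results of these data known.

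Kl, klotho, is made by choroid epithelium and kidney tubule and acts as a co-receptor for fibroblast growth factor 23. In F2 its probe ran from 8.92 to 9.11 (median 9.01) on the lower arrays and from 9.01 to 10.69 (median 9.21) on the upper. In HS4 the ranges were 9.11 to 9.43 (median 9.23) and 9.08 to 11.79 (median 9.33), and in HS-CC 9.13 to 9.37 (median 9.23) and 9.19 to 11.46 (median 9.45). The ranges overlapped, but 21 of 26, 13 of 30 and 20 of 31 upper arrays lay above every lower array of their background. The difference was 0.43 (standard error 0.06, adjusted p = 7.66e-08), and it was 0.41, 0.47 and 0.41 in F2, HS4 and HS-CC. Of the middle group, 1 of 28, 0 of 32 and 1 of 33 arrays lay above every lower array, and the upper arrays that did so had a median Ttr of 15.11, 15.83 and 15.85, against 12.77, 13.92 and 14.26 in the rest. Kl is near background on the lower arrays and Ttr near its ceiling on the richest, so the shape of the relation was not tested. The second Kl probe (ILMN_2930843) was above background on 1 of 26, 1 of 30 and 0 of 31 upper arrays and gave 0.01.

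**Figure D1:**
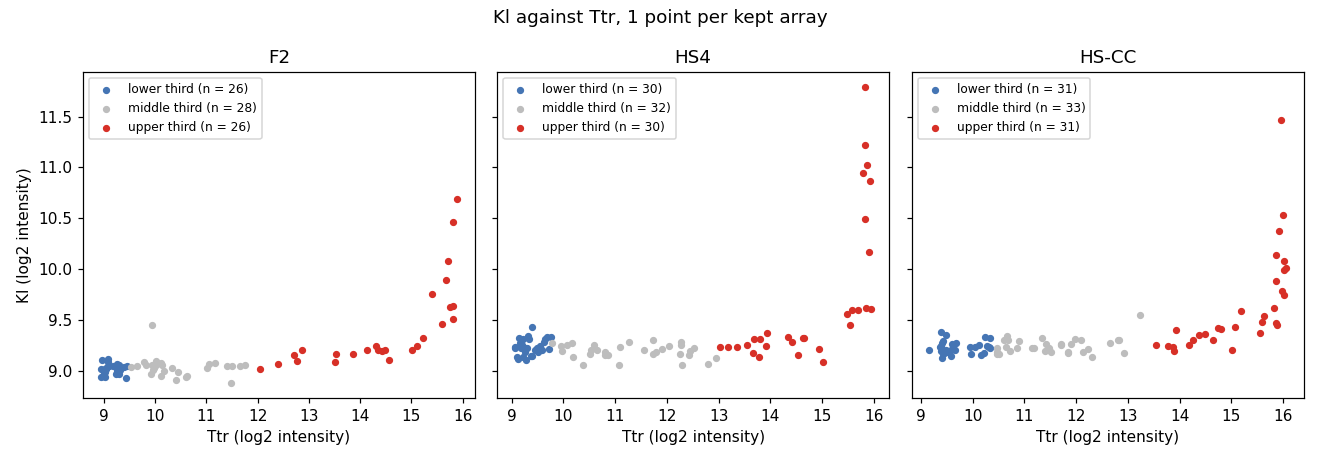
Kl (vertical axis, log2 intensity) against Ttr (horizontal axis, log2 intensity) in F2, HS4 and HS-CC, with 1 point per kept array and colours for the lower, middle and upper Ttr group. Kl stays near 9 on arrays of the lower and middle groups and climbs, up to 11.79 in HS4, on arrays where Ttr is near the top of its range.

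The largest single differences among choroid genes were those of secreted proteins, with 10 of 14 tested probes higher, against 8.28% of all tested probes. Without HS4 5 of the 14 were higher, against 2.32%, and with poor arrays left out repeatedly 8 were, against 4%. As a list their median difference was 0.12, below the 0.18 of the transcription factors and of the solute and metal transporters. Ecrg4 encodes a secreted peptide precursor of choroid epithelium. Its lower arrays ran from 8.84 to 9.37 in F2, 9.07 to 9.82 in HS4 and 9.13 to 9.65 in HS-CC, and its upper arrays reached 12.17, 13.46 and 13.12. Of the upper arrays, 20 of 26, 15 of 30 and 28 of 31 stood above all lower ones, and the difference was 1.08 (standard error 0.10, adjusted p = 9.06e-16). Sostdc1, a secreted inhibitor of BMP and WNT signalling, differed by 0.67 (standard error 0.08), with upper arrays reaching 11.13, 12.75 and 12.35 and lower arrays no higher than 9.10, 9.43 and 9.38. In F2, HS4 and HS-CC 19 of 26, 15 of 30 and 27 of 31 of its upper arrays were above all lower ones. Ecrg4 and Sostdc1 passed the filter on expression only through arrays outside the lower group, so both had to differ. Their values are a description.

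Igf2, a growth factor made by choroid plexus and leptomeninges, was well above background on all of these arrays. Its medians were 10.75 and 11.15 in F2, 11.61 and 12.09 in HS4, and 10.85 and 11.47 in HS-CC, lower before upper. The difference was 0.70 (standard error 0.09, adjusted p = 2.18e-09), while 13 of 26, 6 of 30 and 7 of 31 upper arrays lay above all lower ones, and the others overlapped the lower range. Its binding protein Igfbp2 rose by 0.33 and 0.15 on its 2 probes. Vegfa, which keeps choroid capillaries fenestrated, rose by 0.18 and 0.05, the growth factor Mdk by 0.13 and 0.11, and Bmp6 by 0.03. The Mdk, Bmp6 and Vegfa calls were lost without HS4, and those of Mdk also after poor arrays were left out repeatedly. Sulf1 (0.07), Chil1 (0.06), Bmp7 (0.00) and Gpx3 (0.00) did not pass.

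**Figure D2:**
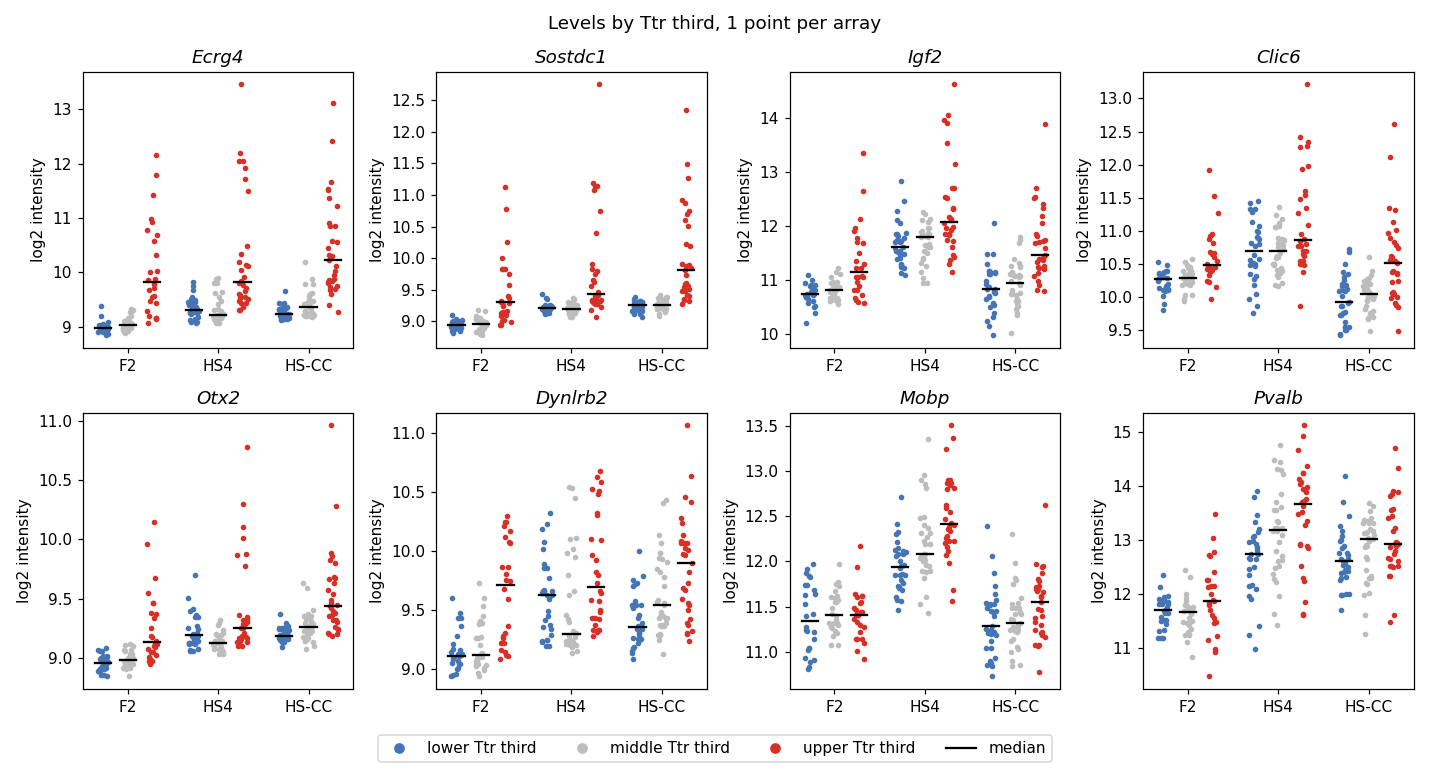
Level (log2 intensity, vertical axes) of 8 genes by background and Ttr group, with 1 point per array and a bar at each median. Ecrg4 and Sostdc1 lift off in the upper group of every background, whereas Mobp moves little in F2 (0.03) and more in HS4 (0.55).

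Genes of ion and water transport held 9 of 19 tested probes that rose. Clic6, a chloride channel protein of secretory epithelia, had lower medians of 10.28, 10.70 and 9.92 and upper medians of 10.48, 10.86 and 10.52 in F2, HS4 and HS-CC. It rose by 0.50 (standard error 0.08, adjusted p = 7.62e-07). Kcne2, a potassium channel subunit of the apical membrane, rose by 0.27 (standard error 0.04, adjusted p = 2.33e-08), with 15 of 26, 13 of 30 and 11 of 31 upper arrays above all lower ones. Kcne2 passed the filter only through arrays outside the lower group, so it had to differ and these values are a description. Slc4a2, an anion exchanger that brings chloride in from the blood side, rose by 0.34 (standard error 0.04), though by 0.15, 0.56 and 0.28 in the 3 backgrounds, a difference between them that passed the interaction test (adjusted p = 0.0172). After poor arrays were left out repeatedly it did not pass (adjusted p = 0.69).

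Slc12a2, the sodium, potassium and chloride cotransporter, rose by 0.28 and 0.15, the membrane carbonic anhydrase Car14 by 0.16, and the cation channel Trpm3 by 0.19 on 1 probe. Aqp1, the apical water channel, rose by 0.10 on the probe that passed the filter. Its brightest probe was too seldom above background to pass: lower arrays stopped at 9.09, 9.16 and 9.36, while upper arrays reached 10.01, 11.33 and 10.99, a difference of 0.35 over all probes. Only 1, 0 and 3 lower arrays were above background on it, so 0.35 understates the difference. Fxyd1, a regulator of the sodium pump, rose by 0.06 on 1 probe, a call lost without HS4 and after poor arrays were left out repeatedly. The sodium pump subunit Atp1b1 (−0.12), the calcium pump Atp2b3 (−0.02 and −0.03), Car2 (0.09 and 0.04), Car12 (0.03), Trpv4 (0.01) and 2 further Trpm3 probes (0.02 and 0.01) did not pass. Several of these genes are also made by striatal neurons or glia.

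**Figure D3:**
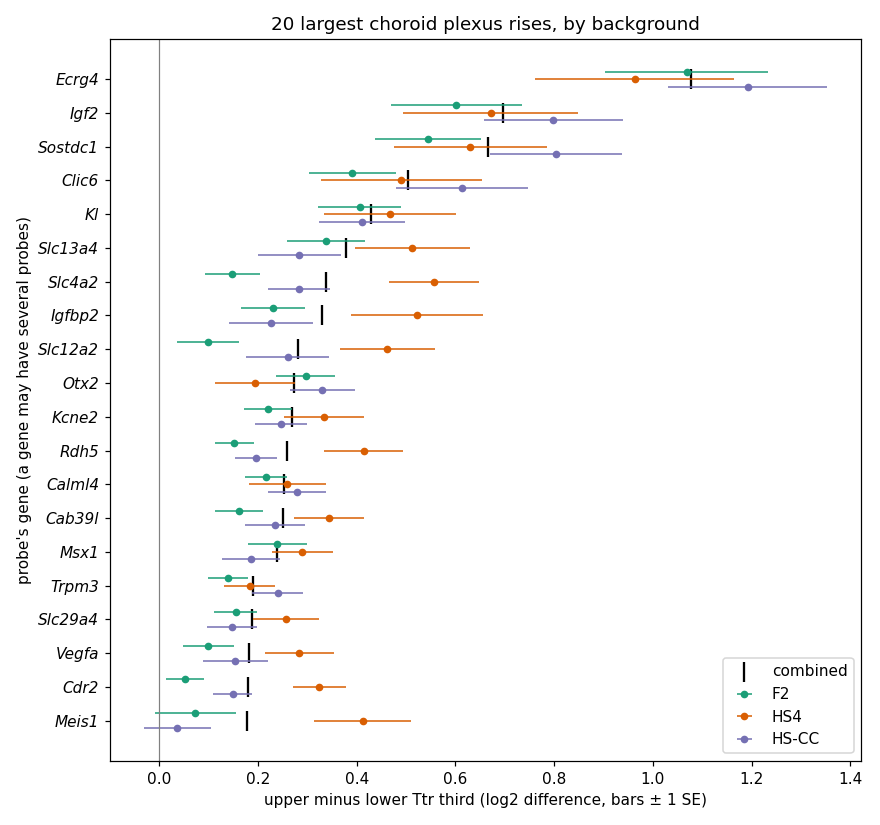
Log2 difference between upper and lower Ttr group (horizontal axis) of the 20 choroid plexus probes with the largest rises, with 1 point per background, bars of 1 standard error and a black tick for the combined value. Ecrg4, at 1.08, leads, and HS4 lies to the right of F2 for Slc4a2, Slc12a2, Rdh5, Cdr2 and Meis1.

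Among carriers and transporters, Slc13a4, which takes up sulfate, rose by 0.38, Slc29a4, a monoamine transporter, by 0.19, and the copper importer Slc31a1 by 0.16, 3 of the 4 tested probes of solute and metal transporters. The fourth, the organic anion transporter Slc22a8, stood at 0.01. Rdh5, a retinol dehydrogenase, rose by 0.26 (standard error 0.04, adjusted p = 1.33e-08) and was called in each background. It was the only one of 4 tested probes of thyroid hormone, retinol, folate and vitamin carriers to rise. Retinol-binding protein Rbp4 (0.03), the folate carrier Slc19a1 (0.02) and the ascorbate transporter Slc23a2 (−0.02) did not. Folr1, the folate receptor that moves folate into cerebrospinal fluid, was below the filter. Its brighter probe did not exceed 9.11, 9.15 and 9.23 on lower arrays and reached 10.06, 10.97 and 10.73 on upper ones, a difference of 0.28 over all probes, again understated, since only 1, 0 and 0 lower arrays were above background.

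Of 11 tested probes of junctions, cytoskeleton and matrix, 10 rose. The calmodulin-like Calml4 (0.25) and the kinase adaptor Cab39l (0.25) led, followed by Cdr2 (0.18) and by the endocytic adaptor Dab2 (0.12 and 0.08). Ezr, ezrin, which anchors microvilli, rose by 0.10, with 0.18, −0.04 and 0.16 in F2, HS4 and HS-CC. Smaller rises were those of Col18a1 (0.08), Krt8 (0.07), Cldn1 (0.06) and Tmprss11a (0.04), while Lgals3bp (0.03) did not pass. The calls of Krt8 and Tmprss11a were lost without HS4. Cldn2, a tight junction claudin of leaky epithelia, was below the filter and differed by 0.19 over all probes, with 8, 8 and 13 upper arrays above background.

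Of the transcription factors, 4 of 5 tested probes rose. Otx2, a homeobox factor needed to form and keep choroid plexus, ran from 8.85 to 9.08 on lower and from 8.95 to 10.15 on upper arrays of F2. In HS4 its ranges were 9.06 to 9.70 and 9.10 to 10.78, and in HS-CC 9.09 to 9.37 and 9.19 to 10.96. It rose by 0.27 (standard error 0.04, adjusted p = 2.30e-07), most upper arrays of F2 (17 of 26) and HS-CC (19 of 31) lying above all lower ones, but 7 of 30 in HS4. Otx2 passed the filter only through arrays outside the lower group, so it had to differ and these values are a description. Msx1, a homeobox factor of the dorsal midline, rose by 0.24, Meis1 by 0.18, and Rfx2, which drives genes of cilia, by 0.10. The Meis1 call was lost without HS4 and after poor arrays were left out repeatedly. Dlx3 (0.02) did not pass.

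Since these genes moved together, the 250 bases before their starts were searched on both strands for TAATCC, the core of OTX2 sites, and for GTTGCC, the core of RFX sites. The sequences are those of RefSeq on GRCm38.p6, and 30 of the 34 called choroid genes had a promoter there. TAATCC was found in 2 of the 30 (6.7%), against 7.2% of all genes, and GTTGCC in 8 (26.7%), against 11.8%. A gene was counted if any of its RefSeq starts had the match. No test was made, and a match is not a site in use. The stretches below show the match in capitals, the RFX core in Kcne2 (reverse-complemented), Aqp1 and Otx2 and the OTX2 core in Car14.
Kcne2, chr16:92292253-92292312, plus strand: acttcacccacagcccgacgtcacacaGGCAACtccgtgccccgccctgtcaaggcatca
Aqp1, chr6:55336161-55336220, plus strand: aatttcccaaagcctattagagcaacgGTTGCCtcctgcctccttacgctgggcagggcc
Otx2, chr14:48667653-48667712, minus strand: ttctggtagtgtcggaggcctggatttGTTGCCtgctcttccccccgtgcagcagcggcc
Car14, chr3:95904714-95904773, minus strand: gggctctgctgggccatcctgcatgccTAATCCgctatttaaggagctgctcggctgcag
The matches begin 109, 111, 41 and 61 bases before a start of the gene, in that order. The Kl promoter held neither motif in this window. The called genes not matched were Clic6, Mdk, Slc12a2 and Sostdc1.

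Among the receptors, besides Kl, 1 probe of the growth hormone receptor Ghr rose (0.08), a call lost without HS4 and after poor arrays were left out repeatedly. The other Ghr probe (0.00), Tlr2 (0.01) and Mfrp (0.00) did not pass. Htr2c, the serotonin receptor that choroid epithelium makes in abundance, stood at −0.01 (standard error 0.02, adjusted p = 0.628). It was lower in the upper group of HS4 and not called in F2 or HS-CC. Its upper arrays spanned 9.02 to 9.43, 9.01 to 9.58 and 9.18 to 9.67, close to background and inside or just beyond the lower range.

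Taken background by background, F2 had 146 called probes (1.04%), 111 higher (0.791%) and 35 lower (0.25%). HS4 had 3085 (22%), 1409 higher (10%) and 1676 lower (11.9%), and HS-CC 62 (0.442%), 53 higher (0.378%) and 9 lower (0.0642%). The choroid probes made up 16, 32 and 15 of those higher. In HS4, 1 was lower, Htr2c. The backgrounds hold separate animals, so calls of one can be read in another. Of the 111 probes higher in F2, 105 (94.6%) had the same sign in HS-CC, where 52.8% of all probes were positive, and 86 (77.5%) in HS4. Of the 53 higher in HS-CC, 50 (94.3%) were positive in F2 and 49 (92.5%) in HS4. The 1409 higher in HS4 were positive in F2 for 592 (42%), fewer than the 50.8% of all probes, and in HS-CC for 1053 (74.7%). Probes that passed the filter on expression only through arrays outside the lower group were bound to lean positive in every background. With the filter set on the lower group, 93, 1395 and 19 probes were higher in F2, HS4 and HS-CC. Their signs elsewhere were not read with that filter, so the shares of equal sign are a description.

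In each of the 3 backgrounds 14 probes (0.0998%) were higher, and 0 were lower. They were those of Ecrg4, Igf2, Sostdc1, Clic6, Kl, Otx2, Kcne2, Rdh5 and Calml4, of Mia, Tekt1 and Pifo, and 2 without a gene symbol. Ecrg4, Sostdc1, Otx2, Kcne2, Mia and 1 of the unnamed probes passed the filter on expression only through arrays outside the lower group, so they had to differ, and with the filter set on the lower group 8 of the 14 remained. Tekt1 and Pifo encode proteins of cilia, and Mia a small secreted matrix protein. By Pearson correlation with Ttr within a background, averaged over the 3, the probes most like it were Ecrg4 (0.74), Sostdc1 (0.68) and Igf2 (0.63), then the 2 unnamed probes (0.63 and 0.62), Kl (0.62), Kcne2 (0.62), Calml4 (0.60), Otx2 (0.59) and Clic6 (0.58), over 80, 92 and 95 arrays. These values share the arrays that set the groups and carry no test.

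Within the upper group choroid genes varied together. Ttr lay within 0.5 of the brightest value of any probe on 8 of 26, 11 of 30 and 14 of 31 of these arrays. On the rest it still varied. Kl, Sostdc1, Ecrg4, Igf2 and Clic6 were also among the probes most like Ttr over the kept arrays. Their correlations with each other therefore cannot be told apart from a shared relation to Ttr, which was not tested. Kl correlated with Sostdc1 at r = 0.98, 0.97 and 0.95 in F2, HS4 and HS-CC (rho 0.89, 0.91 and 0.94), with Ecrg4 at 0.95, 0.96 and 0.91 (rho 0.89, 0.78 and 0.85), with Igf2 at 0.96, 0.92 and 0.91 (rho 0.92, 0.71 and 0.73) and with Clic6 at 0.95, 0.92 and 0.91 (rho 0.91, 0.80 and 0.84). The permutation p of each r was 1e-05, the smallest that 100000 permutations can give, and 1.5e-05 when adjusted over the 18 relations computed, and the adjusted p of rho was at most 6e-05. Without the 2 arrays farthest from the median of Kl, these r lay between 0.83 and 0.97. The ciliary gene Dynlrb2 followed Kl less closely (0.65, 0.65 and 0.58, adjusted permutation p at most 0.00103). Its rho was 0.57, 0.34 and 0.37 (adjusted permutation p 0.00425, 0.076 and 0.0518), and r fell to 0.57, 0.57 and 0.36 without those arrays. The myelin gene Mobp gave 0.35, 0.27 and 0.47 (rho 0.22, 0.09 and 0.16), with adjusted permutation p of 0.0814, 0.147 and 0.0119 for r and at least 0.312 for rho. These r fell to 0.10, 0.18 and 0.12 without them, so the Mobp relation rested on those arrays.

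At an unadjusted p below 0.05 by limma, 19 of 24 tested probes of ependyma and motile cilia were higher and 0 lower. Over all 14027 tested probes, 3609 were at that level, in either direction. At an adjusted p below 0.1, 18 of the 24 were higher and 0 lower, against 8.28% of all tested probes higher. Without HS4 16 were, against 2.32%, and with poor arrays left out repeatedly 12 of 23, against 4%. Dynlrb2, a light chain of ciliary dynein, rose by 0.38 (standard error 0.055, adjusted p = 7.96e-08), with 0.49, 0.22 and 0.44 in F2, HS4 and HS-CC. Rsph1 (0.23), Mlf1 (0.21) and Rarres2 (0.18) followed, and Foxj1, the master factor of motile cilia, rose by 0.04. The mean level of these 24 probes ran from 9.13 to 9.28 on lower and from 9.18 to 9.54 on upper arrays of F2, from 9.30 to 9.78 and 9.35 to 9.85 in HS4, and from 9.35 to 9.59 and 9.40 to 9.82 in HS-CC. For comparison, the mean of the 63 choroid probes ran from 9.54 to 9.67 and 9.62 to 10.13 in F2, 9.82 to 9.96 and 9.90 to 10.66 in HS4, and 9.73 to 9.93 and 9.85 to 10.58 in HS-CC.

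The stroma of the plexus is continuous with the leptomeninges, and 3 of 17 tested probes of leptomeningeal and fibroblast genes were higher and 1 was lower, against 8.28% and 7.59% of all tested probes. Dcn, decorin, rose by 0.16 and 0.07 and Fbln1 by 0.07, whereas the collagen Col6a1 fell by 0.16. Among endothelial and mural cell genes 1 of 20 rose (Pltp, 0.11) and 1 fell (Itm2a, −0.19). Of the 7 red cell probes, Hbb-b2 rose by 0.21 and Fech fell by 0.04. With poor arrays left out repeatedly these 3 lists had 2, 0 and 0 probes higher and 1, 0 and 1 lower, and without HS4 2, 0 and 0 higher and 0, 1 and 0 lower. Prelp, a matrix proteoglycan, and Cdkn1c, an imprinted inhibitor of the cell cycle, which no list held, were among the 20 largest rises (0.29 and 0.28).

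Of 23 probes of oligodendrocytes and myelin, 10 were higher in the combined fit, against 8.28% of all tested probes, 9 in HS4 alone and 0 in F2 or HS-CC alone, with Opalin (0.27), Mobp (0.26 on both probes) and Olig1 (0.26) leading. Mobp stood at 0.03 and 0.00 in F2, 0.55 and 0.55 in HS4, and 0.18 and 0.19 in HS-CC. With poor arrays left out repeatedly 15 of the 23 were higher, against 4%, but without HS4 1 was, against 2.32%. Their mean level ran from 11.41 to 11.99 on lower and 11.43 to 12.02 on upper arrays of F2, from 11.66 to 12.49 and 11.51 to 12.95 in HS4, and from 11.25 to 11.90 and 11.37 to 12.67 in HS-CC. Of 24 astrocyte probes 6 rose, among them S100b (0.20), Agt (0.18), the amino acid transporter Slc7a10 (0.16) and Ntsr2 (0.15), and 4 did without HS4 and 8 with poor arrays left out repeatedly. S100b stood at 0.07, 0.47 and 0.04 in F2, HS4 and HS-CC, and Ntsr2 at −0.06, 0.41 and 0.07. Of 20 probes of microglia and macrophages, Lyz2 (0.12), Tyrobp (0.08) and Cd163 (0.03) rose, and 0 did without HS4 or with poor arrays left out repeatedly. The part of ependyma, stroma and glia in the choroid differences was not tested.

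Pvalb, parvalbumin, counted here in the pallidal list, rose by 0.49 (standard error 0.10, adjusted p = 0.000523), with 0.25, 0.83 and 0.36 in F2, HS4 and HS-CC. Which neurons carried the Pvalb rise was not tested. Without HS4 it did not pass (0.31, adjusted p = 0.128), and with arrays ranked by Kl it stood at −0.0495. With Nefh (0.15) and Nkx2-1 (0.10) it made 3 of 8 pallidal probes that rose, of which 1 did without HS4. Over all tested probes 8.28% were higher and 7.59% lower. Those shares were 4% and 3.12% with poor arrays left out repeatedly, and 2.32% and 0.82% without HS4. Of 20 probes of thalamus, habenula and septum, 5 rose and 1 fell, against 1 and 2 of 21 with poor arrays left out repeatedly and 3 and 0 without HS4. Zic1, a factor of septum, was at 0.49 and 0.38 in F2 and HS-CC but at −0.24 in HS4, the transcription factor Tcf7l2 rose by 0.12, and Cartpt fell by 0.18. Of 9 hippocampal probes C1ql2 (0.13) and Prox1 (0.07) rose and Ociad2 (−0.20) and C1ql3 (−0.10) fell, and of 6 probes of hypothalamic peptides galanin, Gal (0.20), and oxytocin, Oxt (0.13), rose and Sst (−0.13) and Npy (−0.10) fell. Without HS4 0 of the hippocampal probes were called, and 1 of the hypothalamic rose and 0 fell. With poor arrays left out repeatedly 2 hippocampal probes rose and 3 fell, 2 hypothalamic probes rose and 1 fell, and 4 pallidal probes rose and 0 fell.

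Of 30 probes of spiny projection neurons 0 rose and 1, Arpp21, fell (−0.22), and their mean level ran from 11.59 to 12.33 on lower and 11.61 to 12.32 on upper arrays of F2, 11.53 to 12.70 and 11.61 to 12.74 in HS4, and 11.34 to 12.47 and 11.49 to 12.17 in HS-CC. Of 25 probes of cortical glutamatergic neurons 0 rose and 4 fell, namely Nr4a2 (−0.28), Tbr1 (−0.26), Nptx1 (−0.20) and Lmo4 (−0.14), against 7.59% of all tested probes lower. Without HS4 1 fell, and with poor arrays left out repeatedly 1 rose and 2 fell. Of the immediate early genes, the sex-linked transcripts and the genes of subventricular progenitors and neuroblasts, 0 of 19, 0 of 10 and 0 of 12 probes passed at an adjusted p below 0.1 by limma, and 1, 0 and 2 were at an unadjusted p below 0.05. Over all 14027 tested probes, 3609 were at that unadjusted level.

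**Figure D4:**
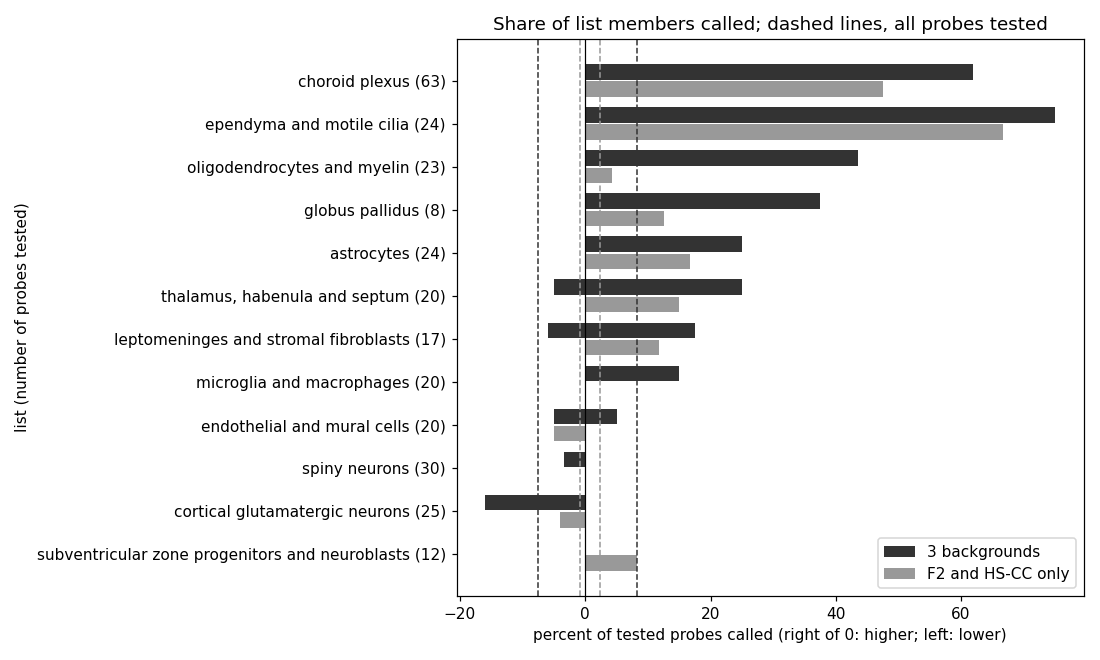
Percent of the tested probes of each list that were higher (right of 0) or lower (left of 0) in the upper Ttr group, in the fit of all backgrounds and in F2 and HS-CC alone. Dashed lines give the same shares over all probes tested. Without HS4 the higher calls go from 39 to 30 of 63 for choroid plexus, from 18 to 16 of 24 for ependyma and from 10 to 1 of 23 for oligodendrocytes.

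Among probes with the same sign in all 3 backgrounds, the largest falls were those of neuronal and widely expressed genes, and each of the 15 named was steepest in HS4. Gpm6a, a neuronal membrane glycoprotein, fell by 0.32 (standard error 0.09, adjusted p = 0.0161), with −0.07, −0.62 and −0.24 in F2, HS4 and HS-CC. Cpne4 (−0.31), Pld3 (−0.29), Igsf21 (−0.28) and Islr2 (−0.27) followed, as did the proton pump genes Atp6v0d1 (−0.28 and −0.26) and Atp6ap2 (−0.26 and −0.25), the glycolytic enzyme Pfkp (−0.27), Hpcal4 (−0.26), Tsc22d1 (−0.25) and Ensa (−0.25). Of the 15 largest falls, 4 stayed called without HS4, whereas 17 of the 20 largest rises did. With arrays ranked by Kl instead of Ttr, 11 of the 15 falls changed sign and 1 stayed called, while 9 of the 19 other largest rises stayed called and 2 changed sign.

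Counts for the pathways that choroid secretions feed stand beside 8.28% higher and 7.59% lower of all tested probes. In the insulin-like growth factor system 3 of 14 probes rose, those of Igf2 and Igfbp2 already given. In klotho and fibroblast growth factor signalling, besides Kl, Fgfr2 rose by 0.04 and Fgf13 fell by 0.11, of 14 probes. In thyroid hormone handling and response the corepressor Hr rose by 0.14 and 0.05 and the amino acid and hormone transporter Slc7a8 fell by 0.10, of 14 probes. In retinoid handling Rdh5 alone of 11 rose. Of 29 probes of BMP and WNT ligands, receptors and inhibitors 5 rose, Sostdc1 and Bmp6, the receptor Bmpr1b (0.11), the mediator Smad5 (0.11) and the target Id1 (0.06), while Id2 (−0.15) and Dkk3 (−0.05) fell. With poor arrays left out repeatedly 2 of 30 rose and 0 fell, and without HS4 3 of 29 rose and 0 fell. Of the thyroid probes 2 rose and 0 fell in the first case and 0 were called in the second.

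The High and Low lines, which the ranking did not use, did not differ detectably in Ttr. The HS4 line labels may not belong to its arrays, so the HS4 results below cannot decide whether its lines differ. High minus Low was 0.35 in F2 (40 and 40 arrays, two-sided permutation test, p = 0.509), −0.48 in HS4 (45 and 47 arrays, permutation p = 0.33) and 0.40 in HS-CC (47 and 48 arrays, permutation p = 0.413). Standard deviations within lines were between 2.30 and 2.44, several times those differences. The upper group held 13 High and 13 Low arrays in F2, 14 and 16 in HS4, and 16 and 15 in HS-CC, and the lower group 11 and 15, 17 and 13, and 15 and 16 (Fisher's exact test, p = 0.781, 0.606 and 1). Of 64 choroid probes including Ttr, 1 differed between the lines of F2, 0 between those of HS4 and 3 between those of HS-CC, against 1.55%, 0.171% and 4.8% of all probes tested, by limma. At an unadjusted p below 0.05 by limma, to which those shares do not apply, the counts were 9, 3 and 6 of 64. The share of all probes at that level is not given here, so these counts are a description and cannot be read as many or few. The probes called were those of Chil1 (0.17, F2), and of Ezr (0.17), Car2 (0.17) and Rbp4 (−0.26) in HS-CC.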

How the data were processed

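Striatal RNA of 275 mice was measured on Illumina bead arrays, 1 array per animal. The authors deposited intensities on a log2 scale, processed in lumi with quantile normalization separate for every background. The kind of log transformation was not given in the sources used here. Background was not subtracted to 0, so differences of dim probes are understated. Groups followed the labels. Of 25697 probes, 23978 had 1 gene symbol and 1719 none. Arrays whose mean correlation lay over 2.5 SD below the mean of their background (3 in F2, 4 in HS4, 1 in HS-CC) were left out. Expressed probes lay above the 95th percentile, array by array, of 1341 probes of taste, olfactory or vomeronasal receptors on 25% or more of the kept arrays in all 3 backgrounds. Upper and lower Ttr groups were compared with limma 3.58.1 (lmFit and eBayes, R 4.3.3), background as covariate, Benjamini-Hochberg adjustment over 14027 probes and a false discovery rate of 0.1. Differences between backgrounds were tested by interaction. In 1 set of simulated data, 50 of 14027 probes were changed at each of 0.1, 0.2, 0.4 and 0.8, with noise independent between probes. Of those changed by 0.2, 94% were called in the combined fit, and 86%, 60% and 82% in F2, HS4 and HS-CC. Shifts shared by many probes of an array were not simulated, so these shares may not hold for the real arrays.

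Members and gene lists were chosen with earlier results of these data known. Named were the probes of Ttr and Kl, the 20 largest rises and 15 largest falls with the same sign in all 3 backgrounds, all tested choroid probes, up to 4 called probes per other list, the 10 probes most like Ttr and the 5 most unequal between backgrounds. Other probes were named after their values were seen. Alternatives were other rankings, filters, thresholds, scalings, covariates and sets of arrays; leaving out a background and the title-code block in HS4 were added after seeing the data. The number of arrays limits the precision. Promoters were searched in Python 3.11.15.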

Additional observations from a re-analysis of the deposited data

Results flagged for a closer look

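The difference between the Ttr groups was unequal among F2, HS4 and HS-CC for 38 of the 135 named and tested probes with a gene symbol. The call was made by an interaction test with an adjusted p below 0.1, which 15.8% of all tested probes passed. The probes of Ly6h, Klk6 and Glra2 and ILMN_1228610 were named because they were the most unequal, so their values are a description. After poor arrays were left out repeatedly, 7 of the 38 still passed. These were both Ly6h probes, Klk6 and Glra2, so chosen, and Zic1, Bcas1 and Gpx3.

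Ly6h, a neuronal surface protein, differed by 0.09, −0.88 and −0.11 in F2, HS4 and HS-CC (interaction adjusted p = 1.01e-05), and its second probe by 0.07, −0.82 and −0.14 (4.39e-05). In HS4 0 of 30 upper arrays lay above the highest lower array on either probe. Klk6, a protease of oligodendrocytes, gave −0.06, 0.44 and 0.03 (6.22e-05), and Glra2, a glycine receptor subunit, 0.01, −0.49 and 0.00 (7.96e-05). ILMN_1228610, without a gene symbol, gave −0.05, 0.25 and 0.00. Zic1 was at 0.49, −0.24 and 0.38 (0.012), Bcas1 at 0.03, 0.41 and 0.34 (0.0363), and Gpx3 at 0.06, −0.12 and 0.06 (0.0993).

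Of choroid plexus genes the interaction adjusted p was 0.0106 for Cdr2, 0.0172 for Slc4a2, 0.0399 for Meis1, 0.0414 for Krt8, 0.0489 for Rdh5 and 0.0901 for Slc12a2. Among glial genes it was 0.00105 and 0.0181 for Mobp, 0.0176 for Opalin, 0.02 for Ntsr2, 0.0328 for S100b, 0.0453 for Tyrobp and 0.0658 for Prr18. For neuronal and regional genes it was 0.00198 for Hpcal4, 0.00582 for Islr2, 0.00878 for Ociad2, 0.0329 for Arpp21, 0.0347 for Sst, 0.0353 for Cpne4 and 0.0584 for Nptx1. Of the others it was 0.0165 and 0.0311 for Atp6v0d1, 0.0682 and 0.0788 for Atp6ap2, 0.0218 for Cdkn1c, 0.0288 for Fgfr2, 0.0428 for Pfkp, 0.0483 for Mlf1, 0.0611 for Id2, 0.0757 for Hr and 0.0944 for Slc7a8.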

How the results depend on the processing

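The Kl difference kept its sign and stayed past the threshold under each alternative that gave one, between 0.28 with arrays split at the median Ttr and 0.44, and the choroid count stayed between 29 and 53 with at most 1 probe lower. Counts over all probes were less steady. In the combined fit 24.6% of the tested probes were called with arrays ranked by Kl, 6.66% when split at the median, 7.13% with poor arrays left out repeatedly, 10.1% with the array's mean correlation as covariate, 9.55% at a false discovery rate of 0.05 and 3.14% without HS4. With every array kept 518 were higher and 1555 lower, which moved the share of higher calls from 52.2% to 25%, and without HS4 that share was 73.9%. In F2, HS4 and HS-CC the calls were 0.278%, 35.8% and 0.0356% by Kl, 0.542%, 7.94% and 0.271% when split at the median, 6.62%, 10.9% and 1.03% with Ttr continuous, and 0.485%, 10.6% and 0.214% at 0.05. HS4 gave 6.02% with poor arrays left out repeatedly and 4.17% with the correlation covariate, HS-CC 0.2% with every array kept and 0.179% with the filter on lower arrays, and F2 0.436% with every array kept and 0.692% without its highest Ttr array. Probes called with 1 sign in all 3 backgrounds numbered 4 by Kl, 7 when split at the median, 54 with Ttr continuous, 8 with the filter on lower arrays and 9 at 0.05. Differences unequal between backgrounds were called for 1.49% with poor arrays left out repeatedly and 8.68% at 0.05. The causes were not tested. The HS4 titles end in 1 of 32 codes, each shared by 2 to 4 animals. The study bred families, but the labels do not say what the codes mark. With the code as a random block (limma duplicateCorrelation, added after the data were seen), 15.9% of the probes were called in the combined fit and 22% in HS4, 39 choroid probes were higher, and the Kl difference was 0.43. The correlation within codes was −0.00469 and 0.00116. The codes come from the same titles as the doubtful HS4 labels and may not belong to the arrays. The block therefore cannot decide whether related animals resembled each other.

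Named probes changed sign most often with arrays ranked by Kl, to 0.1062 for Atp1b1, 0.0386 for Atp2b3, −0.1194 for Chil1, −0.0165 for Dlx3, −0.0222 for Fxyd1, −0.0085 for Ghr, 0.0468 for Htr2c, −0.0362 for Mdk, −0.0644 for Rbp4, −0.0297 for Slc19a1, −0.0041 for Slc22a8, 0.118 for Slc23a2, −0.0255 for Trpm3, 0.182 for Gpm6a, 0.0397 for Cpne4, 0.0791 for Pld3, 0.2042 and 0.1837 for Atp6v0d1, 0.1382 for Pfkp, 0.0015 for Hpcal4, 0.2287 and 0.2467 for Atp6ap2, 0.2189 for Tsc22d1, 0.1536 for Ensa, −0.0495 for Pvalb and −0.0285 for Mobp. That ranking put 22 of 26, 19 of 30 and 23 of 31 upper arrays into its own upper group. The other reversals were of probes not called with the Ttr groups. When split at the median they were Mfrp (−0.0055) and Sulf1 (−0.0048), with Ttr continuous Rbp4 (−0.0002), and with every array Bmp7 (0.008), Car2 (−0.0011), Ghr (−0.0116), Rbp4 (−0.0251) and Slc19a1 (−0.0218). With poor arrays left out repeatedly they were Slc22a8 (−0.0094) and Slc23a2 (0.0468), after quantile normalization across backgrounds Gpx3 (0.0047), with the correlation covariate Slc23a2 (0.0041) and without the highest Ttr arrays Bmp7 (0.0021). Without F2 they were Bmp7 (0.0154), Car2 (−0.0491) and Ghr (−0.0061), without HS-CC Bmp7 (0.0037), Car2 (−0.0074) and Tlr2 (−0.0043), and without HS4 Atp2b3 (0.0074), Chil1 (−0.0043), Gpx3 (0.0592), Htr2c (0.013), Mfrp (−0.0028), Slc19a1 (−0.0114), Slc22a8 (−0.0034), Slc23a2 (0.0346) and Trpm3 (−0.0043). Signal over background limits the dim probes most. No paired analysis was possible because animal numbers are unique within a background and numbers that recur between backgrounds belong to separate animals.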

Other observations

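The 8 arrays left out of the ranking had Ttr values from 8.96 to 14.60 in F2 (3 arrays), from 13.47 to 15.93 in HS4 (4 arrays) and of 15.91 in HS-CC (1 array). On the HS4 arrays 7.43% to 22.2% of the probes exceeded background, with mean correlations of 0.525 to 0.741, and on the HS-CC array 11%, with a mean correlation of 0.643. The 3 F2 arrays stood at 48.2% to 52.9% and 0.933 to 0.937.

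Of the probes called in each of the 3 backgrounds, 2 have no gene symbol in the annotation used. ILMN_2954474 differed by 0.81, 0.56 and 0.85 in F2, HS4 and HS-CC, more than Kl in each, and ILMN_2617005 by 0.34, 0.37 and 0.33.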
